A study of Homo sapiens with 6 samples.

Results

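The matrix metalloproteinases (MMP), the ADAM and ADAMTS proteases and the TIMP inhibitors were examined in RNA-seq of untreated AID-DIvA cells. A gene belonged to the set if its name in the deposited tables was MMP, ADAM or ADAMTS followed by a number (with an A or B allowed after an MMP number) or TIMP1 to TIMP4. This naming rule used no measured value, although the set was chosen with earlier results of these data known. The rule gave 69 of the 57820 genes listed, namely 24 MMP, 22 ADAM, 19 ADAMTS and 4 TIMP genes. Of these, 50 had enough counts to be tested and 19 did not.

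AID-DIvA is a derivative of the osteosarcoma line U2OS that carries an AsiSI nuclease, which hydroxytamoxifen moves into the nucleus, and all samples of both genotypes carry it and none was treated here. WT cells (3 samples, replicates 3, 4 and 5) have intact ARID1A, a subunit of the SWI/SNF chromatin remodeler, and ARID1A-KO cells (3 samples, replicates 3, 4 and 5) were made from the same line with Cas9 and a pair of guides. Which knock-out clone, or how many, went into sequencing is not stated in the methods. Genotype and differences between clones therefore cannot be told apart. Samples are named by genotype and replicate number (WT 3 to ARID1A-KO 5). The study describes its replicates as independent experiments, whereas the labels give only their numbers, and the p-values measure the spread between these samples.

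MMPs are zinc endopeptidases that cleave collagens, proteoglycans and other matrix proteins. Most are secreted as inactive precursors, whereas the membrane-type MMPs stay on the cell surface, where MMP14 also activates pro-MMP2. ADAMs are membrane proteins, many of which shed the ectodomains of growth factors, cytokines and receptors, and ADAMTS proteases are secreted enzymes with thrombospondin repeats that trim procollagens and cleave proteoglycans. TIMPs bind and block these enzymes, and TIMP3, which is held in the matrix, also blocks ADAM17 and several ADAMTS proteases. In bone and bone tumors these genes take part in collagen turnover, mineralization and invasion.

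Total counts on genes ranged from 54512105 to 84088708 per sample. ARID1A itself had 59.6, 62.8 and 62.2 TPM in WT and 8.56, 9.74 and 9.22 TPM in ARID1A-KO cells, with a log2 fold change of -2.74 ± 0.068 (SE, edgeR adjusted p = 9.66e-08), so each sample carried the level its label implies. Of the markers listed for the labelled cell type, RUNX2 (4.42 to 7.79 TPM), COL1A1 (85.8 to 153 TPM), SPARC and VIM were present. Of the 7 tested markers 5 were called, 4 lower and VIM higher. SP7, IBSP, BGLAP and COL1A2 were at or below 0.503 TPM in every sample. The osteoblast markers that moved most were ALPL, at 10.5 ± 3.63 TPM in WT and 1.92 ± 0.356 TPM in ARID1A-KO cells (log2 fold change -2.45 ± 0.27 (SE, edgeR adjusted p = 0.000148)), and SPP1, at 58.0 ± 19.6 TPM in WT and 21.1 ± 6.70 TPM in ARID1A-KO cells (log2 fold change -1.45 ± 0.26 (SE, edgeR adjusted p = 0.00222)). Of the other cell types, leukocyte markers summed to 1.36 to 1.94 TPM in WT and 2.64 to 3.33 TPM in ARID1A-KO samples, with CD3E at 0 in 5 of 6 samples and called changes in 2 of 3 tested markers (PTPRC lower, ITGAM higher), and endothelial markers summed to 0.709 to 1.05 TPM with adjusted p values of 0.249 to 0.957 (edgeR). The epithelial list was led by KRT8 and KRT18 and summed to 645 to 740 TPM in WT and 439.8 to 495 TPM in ARID1A-KO samples, with CDH1 at or below 0.826 TPM in all. Of its 5 markers 3 were called lower (KRT8, KRT18 and CDH1), EPCAM was called higher (6.72 ± 1.09 TPM in WT and 9.08 ± 0.215 TPM in ARID1A-KO cells, SD, n = 3) and CLDN4 was not called. Over all genes tested, 36.2% were called at an adjusted p under 0.05 (edgeR), and the marker counts are given beside that share. The part of the marker shifts in the values below was not tested.

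In ARID1A-KO cells, 10 members were higher and 19 lower than in WT cells at an adjusted p under 0.05 (edgeR's quasi-likelihood test, Benjamini-Hochberg adjusted over all genes tested). Over all 19599 genes tested, 36.2% passed this threshold, 17.8% higher and 18.4% lower. Counts of called genes within the enzyme and regulator groups below stand beside these shares, and no group was tested as a whole. The membrane protease MMP14 rose 5.45-fold, while the stromelysin MMP3, the membrane protease MMP24, the inhibitor TIMP3 and the secreted protease ADAMTS12 were all at least 3.92-fold lower. Of the members, 14 were called with a change of 2-fold or more, 4 higher and 10 lower, against 10.8% of all genes tested in either direction. The median log2 fold change was -0.16 over the 50 tested members and 0.0066 over all genes tested. For 30 members, the normalized counts of the genotypes did not overlap, as for 49.5% of all genes tested. The called set includes genes such as MMP7 and ADAMTS14 that passed the filter on low counts only through the genotype in which they were higher, so these shares are given as counts beside the background. In bulk RNA, a lower level in every cell and a smaller fraction of expressing cells cannot be told apart.

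**Figure D1:**
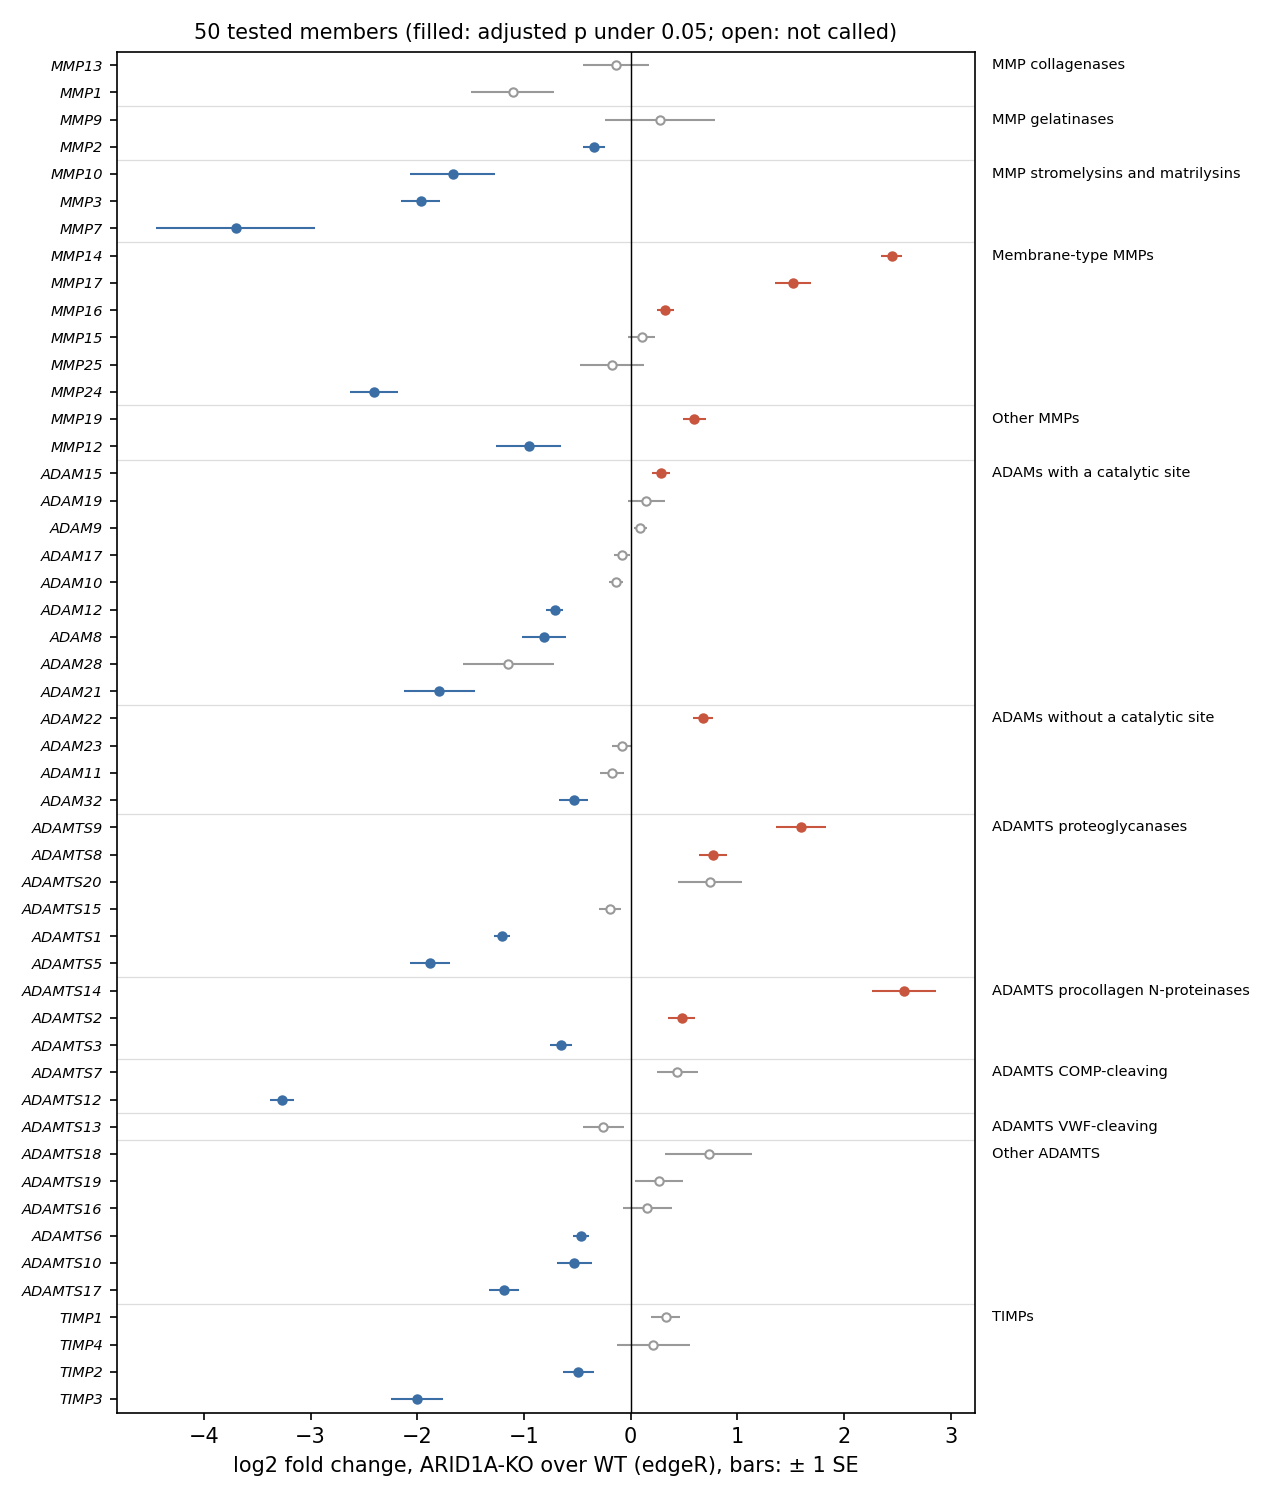
The horizontal axis shows the log2 fold change of ARID1A-KO over WT cells for each of the 50 tested members, arranged by enzyme group, with bars of 1 SE from edgeR; filled points passed an adjusted p of 0.05 (red higher, blue lower) and open gray points did not. The stromelysins and matrilysin lie to the left, from -3.70 to -1.67, whereas MMP14 (2.45) and ADAMTS14 (2.56) lie furthest to the right.

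Sequences of the promoter windows are shown for 5 members with large changes, MMP7 and MMP10 as neighbors that both fell, MMP14 as the membrane protease that rose most, and TIMP3 and ADAMTS12 as the inhibitor and the secreted protease that fell at high expression. They are RefSeq windows on GRCh38.p14 that run from 250 bases before to 50 bases after the gene start, 5′ to 3′ on the strand of the gene, with 3 motifs in capitals, the AP-1 element TGAGTCA on either strand, the TATA box TATAAA on the strand of the gene and the GC box GGGCGG on either strand.
MMP7 (chr11:102530698-102530997, minus strand): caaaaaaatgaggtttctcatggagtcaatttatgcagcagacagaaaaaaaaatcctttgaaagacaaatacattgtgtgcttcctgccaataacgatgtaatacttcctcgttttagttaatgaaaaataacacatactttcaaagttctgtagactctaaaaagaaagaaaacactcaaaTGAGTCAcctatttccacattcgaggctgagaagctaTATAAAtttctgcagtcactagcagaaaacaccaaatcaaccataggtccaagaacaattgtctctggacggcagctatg
MMP10 (chr11:102780579-102780878, minus strand): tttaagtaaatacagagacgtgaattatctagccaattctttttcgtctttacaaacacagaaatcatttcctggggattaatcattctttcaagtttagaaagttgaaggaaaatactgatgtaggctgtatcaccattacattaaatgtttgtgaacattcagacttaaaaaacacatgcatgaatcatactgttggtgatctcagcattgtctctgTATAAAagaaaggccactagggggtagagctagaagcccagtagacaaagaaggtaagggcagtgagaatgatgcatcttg
MMP14 (chr14:22836335-22836634, plus strand): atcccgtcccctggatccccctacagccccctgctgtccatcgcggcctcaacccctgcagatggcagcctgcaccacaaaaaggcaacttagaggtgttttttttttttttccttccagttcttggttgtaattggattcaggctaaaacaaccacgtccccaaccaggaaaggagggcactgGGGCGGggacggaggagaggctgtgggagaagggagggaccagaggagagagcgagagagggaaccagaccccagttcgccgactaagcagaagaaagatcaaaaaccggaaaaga
TIMP3 (chr22:32801455-32801754, plus strand): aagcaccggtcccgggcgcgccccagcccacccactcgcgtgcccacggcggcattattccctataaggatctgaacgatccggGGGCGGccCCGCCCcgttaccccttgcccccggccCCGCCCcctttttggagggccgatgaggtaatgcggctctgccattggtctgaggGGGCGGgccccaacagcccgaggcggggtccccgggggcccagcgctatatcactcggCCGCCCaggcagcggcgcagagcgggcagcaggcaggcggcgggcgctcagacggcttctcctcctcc
ADAMTS12 (chr5:33891941-33892240, minus strand): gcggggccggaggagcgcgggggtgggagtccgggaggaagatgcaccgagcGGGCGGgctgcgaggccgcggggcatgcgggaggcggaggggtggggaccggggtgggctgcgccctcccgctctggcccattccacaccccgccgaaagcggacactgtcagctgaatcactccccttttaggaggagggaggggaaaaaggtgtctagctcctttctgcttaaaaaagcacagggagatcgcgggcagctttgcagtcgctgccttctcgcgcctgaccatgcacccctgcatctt

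The windows of MMP7 and MMP10 are poor in G and C (35.7% and 36.3%) and hold a TATA box that begins 30 and 31 bases before the start. That of MMP7 also holds the AP-1 element, 67 bases before the start. The windows of TIMP3 and ADAMTS12 are rich in G and C (72.7% and 67.0%) and contain 5 and 1 GC boxes, and that of MMP14 (55.0%) contains 1. In all, 39 of the 69 members matched a RefSeq window by symbol. MMP1 and MMP3 were among the members without a window, so their promoters were not searched and the shares below do not cover them. TATAAA was found in 7 of the 39 (17.9%, against 7.33% of all 35116 windows), namely MMP7, MMP8, MMP10, MMP20, MMP21, MMP26 and ADAM21. Of these 7, MMP7, MMP10 and ADAM21 were tested and called lower, as were 12 of the 29 tested members with a window. MMP7 passed the filter on low counts only through WT samples, so nothing is read from this count. TGAGTCA was found in 1 of the 39 (2.56%, against 4.95% of all windows) and GGGCGG in 26 (66.7%, against 44.95%). The GC box was in 24 of the 29 tested members with a window, in 8 of the 12 called lower and in 5 of the 5 called higher. The GC box was chosen after seeing the windows, the motifs do not overlap in the windows shown, and a match describes letters only.

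The largest rise among the well expressed proteases was that of MMP14 (ENSG00000157227.8, chromosome 14 from 23305766 to 23318236, plus strand, in GRCh37), the membrane-type collagenase. It had 9.58, 11.8 and 9.57 TPM in WT and 53.5, 59.6 and 55.4 TPM in ARID1A-KO cells, and every ARID1A-KO sample lay more than 4-fold above every WT sample. Its mean was 10.3 ± 1.30 TPM in WT and 56.1 ± 3.16 TPM in ARID1A-KO cells (SD, n = 3 per genotype), a log2 fold change of 2.45 ± 0.10 (SE, edgeR adjusted p = 6.91e-07). The 129 neighbors of MMP14 within 5 Mb had a median of 0.31, in the same direction. The part of this regional shift in its value was not tested. Among the membrane-type MMPs, 3 of 6 tested genes rose, 1 fell and 2 did not pass the test. MMP17, a GPI-anchored member, had 0.560, 0.621 and 0.629 TPM in WT and 1.47, 1.81 and 1.92 TPM in ARID1A-KO cells, without overlap and at a low level in both genotypes, with a log2 fold change of 1.52 ± 0.17 (SE, edgeR adjusted p = 0.000147). Its 47 neighbors within 5 Mb had a median of 0.26. MMP16, a transmembrane member with activity toward pro-MMP2, had 20.5, 22.5 and 21.8 TPM in WT and 27.6, 28.2 and 25.0 TPM in ARID1A-KO cells, a log2 fold change of 0.33 ± 0.079 (SE, edgeR adjusted p = 0.0108). MMP15 (0.10) and the low MMP25 (-0.17) did not pass the test.

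MMP24 (ENSG00000125966.8, chromosome 20 from 33814457 to 33864801, plus strand), a membrane-type MMP best known from neurons, went the other way. It had 38.7, 23.8 and 32.4 TPM in WT and 4.39, 5.33 and 8.14 TPM in ARID1A-KO cells, and the highest ARID1A-KO sample, replicate 5, lay well below the lowest WT sample, replicate 4. Its log2 fold change was -2.40 ± 0.22 (SE, edgeR adjusted p = 5.11e-05), against a median of 0.22 for its 117 neighbors within 5 Mb. EDEM2 and the antisense gene MMP24-AS1 overlap it on the opposite strand, and the counts used here keep the strands apart.

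MMP3 (ENSG00000149968.7, chromosome 11 from 102706532 to 102714534, minus strand), the stromelysin that cleaves proteoglycans and activates other pro-MMPs, was the MMP with the highest level in WT cells. It had 122, 149 and 188 TPM in WT and 35.1, 31.8 and 49.97 TPM in ARID1A-KO cells, no overlap between genotypes and a log2 fold change of -1.97 ± 0.19 (SE, edgeR adjusted p = 5.93e-05). ARID1A-KO replicate 5 was the highest of its genotype for MMP3, MMP24 and TIMP3. MMP10, the other stromelysin expressed, had 3.71, 6.47 and 13.2 TPM in WT and 2.37, 2.20 and 2.71 TPM in ARID1A-KO cells; the WT samples differed among themselves by more than 3-fold, and its log2 fold change of -1.67 ± 0.40 (SE, edgeR adjusted p = 0.00963) ran from -2.02 to -1.06 over the alternative settings, the latter without WT 5. MMP7, the matrilysin, had 15, 52 and 12 counts in WT and 2, 3 and 1 counts in ARID1A-KO samples. Its log2 fold change was -3.70 ± 0.75 (SE, edgeR adjusted p = 0.00425), and the pooled counts, 79 in WT and 6 in ARID1A-KO samples, gave a level 13.7-fold higher in WT cells (95% interval 6.01 to 38.4, exact Clopper-Pearson, counting error only). WT 4 supplied 52 of the 79 counts, and without it the log2 fold change was -2.83 (edgeR adjusted p = 0.00563). MMP11 and MMP26 had too few counts to be tested.

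MMP3, MMP10 and MMP7 belong to a cluster of 9 MMP genes on chromosome 11 from 102391239 to 102826463 (GRCh37). In the order MMP7, MMP20, MMP27, MMP8, MMP10, MMP1, MMP3, MMP12 and MMP13, 6 were tested, all 6 had a negative log2 fold change and 4 were called lower. Over all genes tested, 18.4% were called lower. MMP7 passed the filter on low counts only through WT samples, so nothing is read from these counts. MMP12, the macrophage elastase, had 32, 25 and 31 counts in WT and 14, 9 and 27 counts in ARID1A-KO samples and a log2 fold change of -0.96 ± 0.31 (SE, edgeR adjusted p = 0.0365). Its adjusted p (edgeR) was 0.0997 on leaving out WT 3, 0.111 for WT 5, 0.11 for ARID1A-KO 3 and 0.122 for ARID1A-KO 4, and 0.0999 with DESeq2. The interstitial collagenase MMP1 had 20, 35 and 24 counts in WT and 6, 10 and 24 counts in ARID1A-KO samples and -1.10 ± 0.39 (SE, edgeR adjusted p = 0.0519), which missed the threshold. Its adjusted p (edgeR) was 0.0185 on leaving out ARID1A-KO 5 and 0.0267 with the replicate number as a block. Without a filter on low counts it was 0.00952, in a fit whose adjusted p values are not comparable with the others. MMP13, the collagenase of hypertrophic cartilage and bone, had 35, 20 and 26 counts in WT and 30, 14 and 37 counts in ARID1A-KO samples, groups that overlap and a log2 fold change of -0.14 ± 0.31 (SE, edgeR adjusted p = 0.768). The sign of MMP13 changed on leaving out WT 3 (0.058) or ARID1A-KO 4 (0.05). Of the 37 other genes tested within 5 Mb of the cluster, 13 were called, 8 of them lower, and the median over the 37 was -0.19. The part of this regional shift in the cluster's values was not tested.

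MMP2, the gelatinase that MMP14 activates, was the second most abundant MMP in WT cells with 52.9, 54.0 and 69.4 TPM in WT and 44.7, 48.3 and 45.6 TPM in ARID1A-KO cells. The genotypes did not overlap, and the log2 fold change was -0.34 ± 0.11 (SE, edgeR adjusted p = 0.0316), against a median of 0.29 for its 71 neighbors within 5 Mb. The call was lost with fewer samples, where the adjusted p (edgeR) was 0.0581 on leaving out WT 5, 0.0784 for ARID1A-KO 3, 0.0597 for ARID1A-KO 4 and 0.081 for ARID1A-KO 5. MMP9, the other gelatinase, had 2.52, 3.96 and 12.1 TPM in WT and 4.48, 7.03 and 11.02 TPM in ARID1A-KO cells. Replicate 5 was the highest in both genotypes, the groups overlapped, and the log2 fold change of 0.28 ± 0.52 (SE, edgeR adjusted p = 0.715) became 1.21 with an adjusted p (edgeR) of 0.0396 on leaving out WT 5. MMP19, a secreted MMP of broad specificity, had 8.17, 8.27 and 9.51 TPM in WT and 11.8, 12.1 and 15.2 TPM in ARID1A-KO cells, a log2 fold change of 0.60 ± 0.11 (SE, edgeR adjusted p = 0.00242).

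The makeup of the MMP transcripts is given as shares of their summed TPM. MMP3 held 45.2, 51.2 and 51.0% in WT and 18.02, 15.4 and 22.1% in ARID1A-KO samples of the summed MMP TPM. MMP14 held 3.55, 4.08 and 2.59% in WT and 27.5, 28.8 and 24.5% in ARID1A-KO samples, and MMP2 19.6, 18.6 and 18.8% in WT and 23.0, 23.3 and 20.2% in ARID1A-KO samples. Summed over all 24 MMP genes, the level was 269.6, 290.1 and 369 TPM in WT and 195, 207 and 226 TPM in ARID1A-KO samples. These shares are descriptions of the TPM values, for which no test was made.

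**Figure D2:**
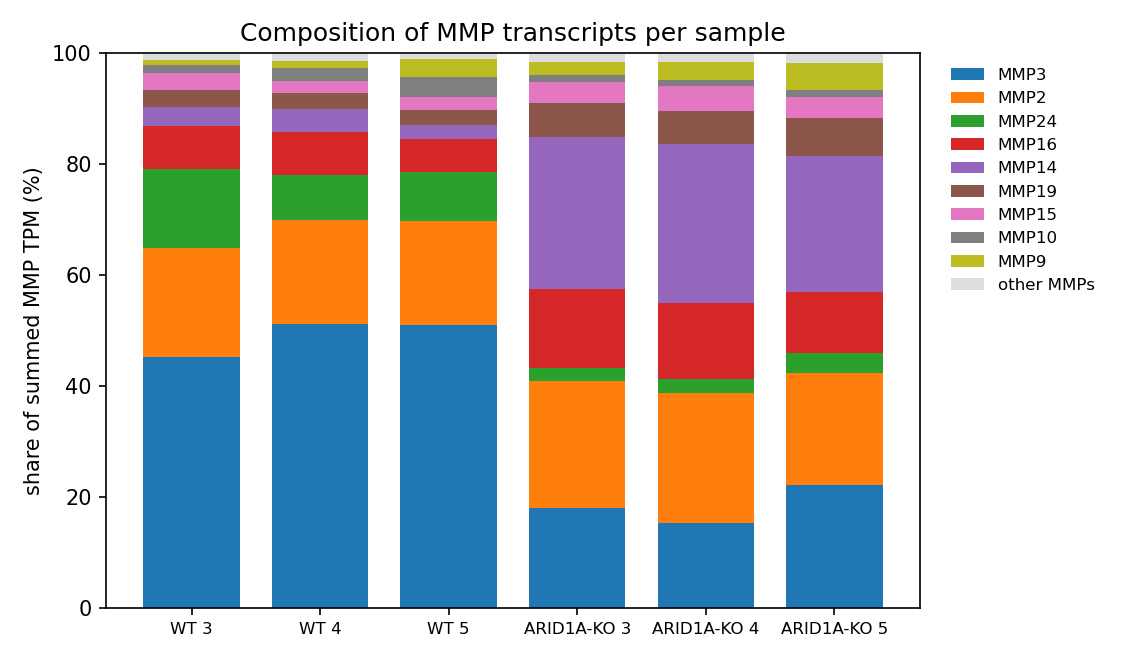
Each bar is 1 sample (WT and ARID1A-KO, replicates 3, 4 and 5), and its colored parts give the share in percent of the TPM summed over the 24 MMP genes, with 9 MMPs shown by name and the rest pooled as other MMPs. MMP3 takes 45.2% to 51.2% of the WT bars and 15.4% to 22.1% of the ARID1A-KO bars, and MMP14 takes 2.59% to 4.08% and 24.5% to 28.8%.

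Among the inhibitors, TIMP3 (ENSG00000100234.11, chromosome 22 from 33197687 to 33259030, plus strand) fell and TIMP1 did not pass the test. TIMP3 had 58.6, 30.6 and 49.4 TPM in WT and 9.41, 9.44 and 15.6 TPM in ARID1A-KO cells, with WT replicate 4 the lowest of its genotype and no overlap between genotypes. Its mean was 46.2 ± 14.3 TPM in WT and 11.5 ± 3.57 TPM in ARID1A-KO cells (SD, n = 3 per genotype). The log2 fold change was -2.002 ± 0.24 (SE, edgeR adjusted p = 0.000258), against a median of 0.04 for the 116 neighboring genes tested within 5 Mb. TIMP3 lies within SYN3, which is on the opposite strand. TIMP2, which also serves MMP14 in the activation of pro-MMP2, had 96.7, 63.0 and 85.3 TPM in WT and 50.9, 53.3 and 70.0 TPM in ARID1A-KO cells. Its genotypes overlapped, and the log2 fold change was -0.49 ± 0.15 (SE, edgeR adjusted p = 0.0293). This call was lost with fewer samples too, with an adjusted p (edgeR) of 0.106 on leaving out WT 3, 0.093 for WT 5, 0.0953 for ARID1A-KO 3 and 0.0983 for ARID1A-KO 4. DDC8 overlaps TIMP2 on the same strand, so reads of both loci may not be fully separated.

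TIMP1 (ENSG00000102265.7, chromosome X from 47441712 to 47446188, plus strand) had the highest level of all members, with 987, 1403 and 1130.3 TPM in WT and 1522, 1555 and 1320.3 TPM in ARID1A-KO cells. WT replicate 4 lay within the ARID1A-KO range, and the log2 fold change was 0.33 ± 0.13 (SE, edgeR adjusted p = 0.0829). Its adjusted p (edgeR) was 0.0103 on leaving out WT 4 and 0.0334 for ARID1A-KO 5, and 0.0403 with DESeq2. TIMP4 was low, with 1.03, 0.419 and 0.543 TPM in WT and 0.758, 0.649 and 0.863 TPM in ARID1A-KO cells and a log2 fold change of 0.21 ± 0.34 (SE, edgeR adjusted p = 0.665). TIMP1 held 86.3, 93.7 and 89.3% in WT and 96.1, 96.1 and 93.9% in ARID1A-KO samples of the summed TIMP TPM, and TIMP3 5.13, 2.05 and 3.90% in WT and 0.595, 0.583 and 1.11% in ARID1A-KO samples.

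**Figure D3:**
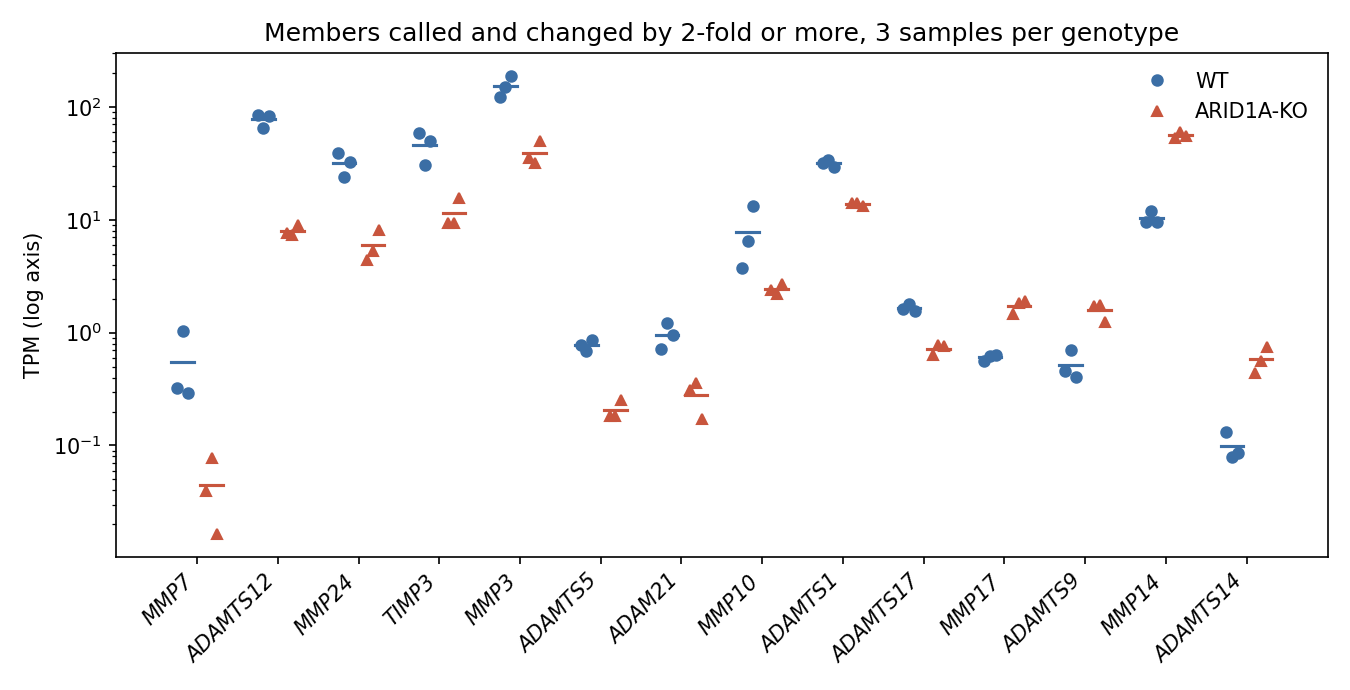
The vertical log axis gives TPM for the 14 members that were called with a change of 2-fold or more, ordered from the most negative to the most positive log2 fold change, with 1 point per sample (blue circles WT, red triangles ARID1A-KO) and a line at the mean of 3 samples. In all 14 genes the points of the genotypes are separated, with MMP7 on the left at or below 1.03 TPM and MMP14, next to the right end, at 9.57 to 59.6 TPM.

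Of the secreted ADAMTS proteases, ADAMTS12 (ENSG00000151388.6, chromosome 5 from 33523640 to 33892297, minus strand), which cleaves the cartilage protein COMP, changed most. It had 84.7, 65.5 and 82.2 TPM in WT and 7.59, 7.40 and 9.03 TPM in ARID1A-KO cells, so every WT sample lay more than 7-fold above every ARID1A-KO sample. Its mean was 77.4 ± 10.4 TPM in WT and 8.01 ± 0.889 TPM in ARID1A-KO cells (SD, n = 3 per genotype). The log2 fold change was -3.27 ± 0.11 (SE, edgeR adjusted p = 3.65e-07), with -0.13 as the median of its 50 neighbors (5 Mb). ADAMTS7, the other COMP-cleaving member, had 1.18, 1.19 and 1.19 TPM in WT and 1.11, 1.66 and 2.04 TPM in ARID1A-KO cells and a log2 fold change of 0.44 ± 0.19 (SE, edgeR adjusted p = 0.105), which became a call with an adjusted p (edgeR) of 0.018 on leaving out ARID1A-KO 3.

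The proteoglycanases, which cleave aggrecan and versican, did not move in 1 direction: of 6 tested, 2 fell and 2 rose. ADAMTS1 had 31.9, 34.1 and 29.6 TPM in WT and 13.9, 14.1 and 13.4 TPM in ARID1A-KO cells, without overlap and with a small spread, and a log2 fold change of -1.20 ± 0.076 (SE, edgeR adjusted p = 6.69e-06). ADAMTS5, a major aggrecanase, is its neighbor on chromosome 21 (ADAMTS1 from 28208066 to 28217728, ADAMTS5 from 28290231 to 28338832) and had 0.770, 0.692 and 0.859 TPM in WT and 0.184, 0.184 and 0.255 TPM in ARID1A-KO cells. Its log2 fold change was -1.88 ± 0.19 (SE, edgeR adjusted p = 8.55e-05), and the neighbors of the pair within 5 Mb had medians of -0.11 and -0.11. ADAMTS9 had 0.457, 0.698 and 0.408 TPM in WT and 1.72, 1.75 and 1.24 TPM in ARID1A-KO cells, a log2 fold change of 1.59 ± 0.23 (SE, edgeR adjusted p = 0.000754). A second neighboring pair lies on chromosome 11, where ADAMTS8 had 2.53, 2.16 and 2.45 TPM in WT and 3.86, 4.45 and 3.80 TPM in ARID1A-KO cells and a log2 fold change of 0.77 ± 0.13 (SE, edgeR adjusted p = 0.00177), while the adjacent ADAMTS15 (-0.19) did not pass the test. ADAMTS20 was low, with 0.75 ± 0.30 (SE, edgeR adjusted p = 0.0806), and its adjusted p (edgeR) was 0.0278 on leaving out WT 4. ADAMTS4 was not tested.

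All 3 procollagen N-proteinases, which remove the amino-terminal propeptides of fibrillar collagens, were called, ADAMTS14 and ADAMTS2 higher and ADAMTS3 lower. ADAMTS14 had 0.132, 0.0787 and 0.0850 TPM in WT and 0.440, 0.565 and 0.752 TPM in ARID1A-KO cells (14, 9 and 8 counts in WT and 50, 50 and 103 counts in ARID1A-KO samples). It had the largest positive log2 fold change of the members, 2.56 ± 0.30 (SE, edgeR adjusted p = 0.000195), at a low level, beside a median of 0.40 for its 101 neighbors within 5 Mb. ADAMTS14 passed the filter on low counts only through the ARID1A-KO samples, so its rank is a description. ADAMTS3, which had the highest level of the 3, had 35.3, 27.5 and 31.1 TPM in WT and 18.1, 18.5 and 22.9 TPM in ARID1A-KO cells and a log2 fold change of -0.65 ± 0.10 (SE, edgeR adjusted p = 0.00101). ADAMTS2 had 1.45, 1.70 and 1.41 TPM in WT and 2.001, 2.17 and 2.19 TPM in ARID1A-KO cells and 0.48 ± 0.13 (SE, edgeR adjusted p = 0.0155), with an adjusted p (edgeR) of 0.0551 on leaving out WT 3, 0.0503 for WT 5 and 0.0619 for ARID1A-KO 4.

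Of the other ADAMTS genes, 3 of 6 fell and none rose among those called. ADAMTS6, the most abundant ADAMTS, had 127, 146 and 147 TPM in WT and 102, 100.0 and 102 TPM in ARID1A-KO cells. The ARID1A-KO samples lay within 2 TPM of each other and below all WT samples, with a log2 fold change of -0.46 ± 0.076 (SE, edgeR adjusted p = 0.00142). ADAMTS17 had 1.60, 1.79 and 1.54 TPM in WT and 0.636, 0.770 and 0.760 TPM in ARID1A-KO cells and -1.19 ± 0.14 (SE, edgeR adjusted p = 0.000216). ADAMTS10, a fibrillin-associated member, had 4.62, 3.21 and 3.51 TPM in WT and 2.24, 2.43 and 3.17 TPM in ARID1A-KO cells and -0.53 ± 0.17 (SE, edgeR adjusted p = 0.0335), beside a median of -0.28 for its 249 neighbors. Its adjusted p (edgeR) was 0.116 on leaving out WT 3, 0.0573 for WT 5, 0.114 for ARID1A-KO 3 and 0.111 for ARID1A-KO 4. ADAMTS16, ADAMTS18 and ADAMTS19 had log2 fold changes of 0.16, 0.73 and 0.26 and did not pass the test, although ADAMTS18 had an adjusted p (edgeR) of 0.00672 on leaving out ARID1A-KO 5. ADAMTS13, which cleaves von Willebrand factor, had -0.26 and did not pass either. Summed over the 19 ADAMTS genes, the level was 303, 299 and 311 TPM in WT and 167, 167 and 172 TPM in ARID1A-KO samples, and ADAMTS12 held 27.9, 21.9 and 26.4% in WT and 4.56, 4.43 and 5.24% in ARID1A-KO samples of it.

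Among the ADAMs with a catalytic site, 1 of 9 tested genes rose, 3 fell and 5 did not pass the test, among them ADAM9, ADAM10, ADAM17 and ADAM19. ADAM9, the most abundant, had 198, 185 and 193 TPM in WT and 206, 205 and 199 TPM in ARID1A-KO cells and a log2 fold change of 0.092 ± 0.064 (SE, edgeR adjusted p = 0.291). ADAM10, the sheddase of Notch and of many adhesion proteins, had 55.4, 48.4 and 52.8 TPM in WT and 44.8, 46.0 and 51.6 TPM in ARID1A-KO cells and -0.13 ± 0.067 (SE, edgeR adjusted p = 0.149). ADAM17, the TNF convertase, had 24.5, 23.8 and 20.8 TPM in WT and 21.3, 21.3 and 22.5 TPM in ARID1A-KO cells and -0.08 ± 0.073 (SE, edgeR adjusted p = 0.426). For all 3 the SE was below 0.08, and missing the threshold does not show that the genotypes are equal. ADAM19 had 28.8, 43.5 and 33.8 TPM in WT and 40.2, 45.7 and 31.0 TPM in ARID1A-KO cells, with WT replicate 4 and ARID1A-KO replicate 4 highest, and 0.15 ± 0.18 (SE, edgeR adjusted p = 0.551). Summed over the 22 ADAM genes, the level was 417, 424 and 424 TPM in WT and 418, 437 and 416 TPM in ARID1A-KO samples.

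ADAM12, a sheddase of HB-EGF that also cleaves IGF-binding proteins, fell. It had 34.2, 41.9 and 38.6 TPM in WT and 22.7, 23.9 and 23.1 TPM in ARID1A-KO cells, no overlap, and a log2 fold change of -0.71 ± 0.083 (SE, edgeR adjusted p = 0.000197). ADAM15 had 45.7, 49.7 and 53.8 TPM in WT and 56.4, 65.9 and 59.0 TPM in ARID1A-KO cells and was higher, with 0.29 ± 0.084 (SE, edgeR adjusted p = 0.025), but an adjusted p (edgeR) of 0.103 on leaving out WT 3 and 0.109 for ARID1A-KO 4. DCST1 overlaps ADAM15 on the same strand. ADAM8 (-0.81) and the low ADAM21 were lower, the latter with 38, 70 and 45 counts in WT and 18, 16 and 12 counts in ARID1A-KO samples and -1.79 ± 0.33 (SE, edgeR adjusted p = 0.00276), against a median of 0.38 for its 100 neighbors. ADAM28 had 20, 11 and 16 counts in WT and 4, 6 and 13 counts in ARID1A-KO samples and -1.15 ± 0.43 (SE, edgeR adjusted p = 0.062), and its adjusted p (edgeR) was 0.033 on leaving out WT 4 and 0.0456 for ARID1A-KO 5.

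The ADAMs without a catalytic site act in adhesion and as receptors. ADAM22, a receptor of LGI proteins, had 2.50, 2.16 and 2.15 TPM in WT and 3.48, 3.56 and 3.81 TPM in ARID1A-KO cells, no overlap and a log2 fold change of 0.68 ± 0.091 (SE, edgeR adjusted p = 0.000449). ADAM23, an integrin-binding member and the most abundant of this group, had 14.7, 16.6 and 18.2 TPM in WT and 15.7, 15.7 and 15.1 TPM in ARID1A-KO cells and -0.083 ± 0.094 (SE, edgeR adjusted p = 0.529). ADAM32 had 1.36, 1.34 and 1.13 TPM in WT and 0.817, 0.841 and 0.984 TPM in ARID1A-KO cells and was lower, with -0.53 ± 0.14 (SE, edgeR adjusted p = 0.0133), and an adjusted p (edgeR) of 0.0537 on leaving out ARID1A-KO 3 and 0.0612 for ARID1A-KO 4. ADAM11 (-0.18) did not pass the test.

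The order of levels changed between genotypes. Among the 69 members, 20 reached a mean of 10 TPM in at least 1 genotype, 19 in WT and 18 in ARID1A-KO cells. In WT cells TIMP1, ADAM9, MMP3 and ADAMTS6 led (1174 ± 211, 192 ± 6.76, 153 ± 33.3 and 139.9 ± 10.9 TPM, SD, n = 3), and MMP3 and ADAMTS6 did not differ beyond their spread. In ARID1A-KO cells TIMP1, ADAM9 and ADAMTS6 still led, followed by ADAM15 (60.5 ± 4.92), TIMP2 (58.0 ± 10.4) and MMP14 (56.1 ± 3.16 TPM), which lay within each other's spread. MMP14 went from rank 19 to rank 6, MMP3 from 3 to 10, TIMP3 from 10 to 18 and ADAMTS12 from 6 to 20.

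The members without a test had at most 15 counts in any sample. MMP26, MMP27, ADAM2 and ADAM6 had 0 counts in all 6 samples, which allows up to 3 counts in each (0.0357 to 0.055 CPM). MMP23A and MMP23B are near-identical copies, whose few reads could not be assigned with certainty. ADAM20, ADAM18, ADAM5, MMP28 and MMP11 were among the others that stayed at trace levels.

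Genes that control these proteases were read from a list of 35 outside the naming rule, chosen with earlier results of these data known. Of these 35 genes, 32 were tested, 10 were called higher and 13 lower. Over all genes tested 36.2% were called, and because of how the list was chosen no excess over this share is read from it. The plasminogen system activates several pro-MMPs. Its urokinase gene PLAU had 25.3, 23.6 and 23.1 TPM in WT and 82.0, 84.9 and 97.1 TPM in ARID1A-KO cells and 1.88 ± 0.069 (SE, edgeR adjusted p = 4.79e-07), and every ARID1A-KO sample lay more than 3-fold above every WT sample. The 90 neighbors of PLAU within 5 Mb had a median of 0.39. PLAT, the tissue activator, was higher, with a log2 fold change of 1.03, and the receptor PLAUR lower, with -0.50. SERPINE2 (-0.19) did not pass the test, and PLG and SERPINB2 were not tested.

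Of the inhibitors other than TIMPs, 4 fell and 1 rose. SPOCK1, a testican proteoglycan, had 25.7, 37.1 and 31.7 TPM in WT and 4.77, 4.86 and 4.42 TPM in ARID1A-KO cells and -2.75 ± 0.14 (SE, edgeR adjusted p = 2.43e-06). A2M, the broad protease trap, had 6.30, 4.44 and 3.76 TPM in WT and 0.777, 0.923 and 1.08 TPM in ARID1A-KO cells and -2.37 ± 0.20 (SE, edgeR adjusted p = 3.3e-05). SPOCK3 had -1.79, beside a median of -1.29 for its neighbors, and RECK, a membrane-anchored MMP inhibitor, -0.65. TFPI2, a secreted inhibitor of serine proteases that associates with the matrix, rose from 2, 0 and 0 counts in WT and 107, 86 and 80 counts in ARID1A-KO samples. Its adjusted p was 3.61e-05 (edgeR), and the pooled ratio was 131 (95% interval 36.0 to 1089.9, exact Clopper-Pearson, counting error only), since only 2 counts were seen in WT samples. TFPI2 passed the filter on low counts only through the ARID1A-KO samples.

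All 4 proprotein convertases, which remove the propeptides of membrane-type MMPs, ADAMs and ADAMTS proteases, were called, FURIN higher (0.59) and PCSK5, PCSK6 and PCSK7 lower (-0.53, -1.04 and -0.30). BSG, the MMP inducer EMMPRIN, had 357, 362 and 406 TPM in WT and 663, 757 and 736 TPM in ARID1A-KO cells and 0.94 ± 0.077 (SE, edgeR adjusted p = 2.72e-05), and LRP1, the receptor that clears protease complexes, -0.64. The 170 neighbors of BSG within 5 Mb had a median of 0.24. Of the tetraspanins that escort ADAM10, TSPAN5, TSPAN10 and TSPAN14 were lower (-0.92, -0.72 and -0.56), TSPAN33 higher (0.81) and TSPAN17 not called (0.0065). The genotypes overlapped for TSPAN10 (edgeR adjusted p = 0.042). RHBDF1 (0.38) and FRMD8 (0.31), which act with ADAM17, were higher and RHBDF2 (0.19) was not called. Of the ADAMTS-like proteins, ADAMTSL1 had 8.76, 9.31 and 9.55 TPM in WT and 3.94, 4.52 and 4.41 TPM in ARID1A-KO cells and -1.10 ± 0.076 (SE, edgeR adjusted p = 1.08e-05), but its neighbors within 5 Mb had a median of -1.48, further from 0 than the gene itself. THSD4 was higher (0.78) and the other 4 were not called.

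**Figure D4:**
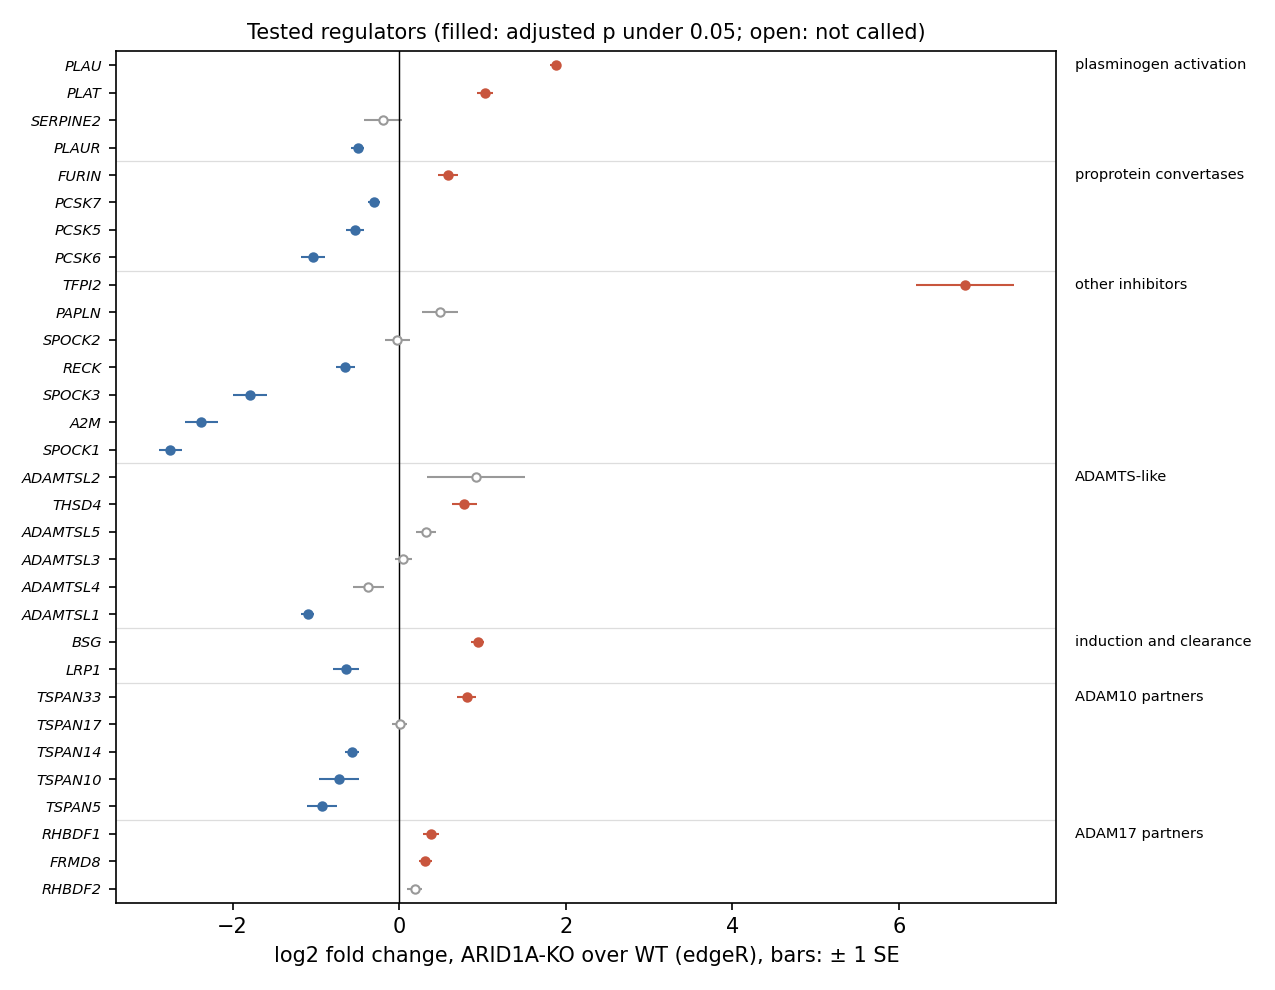
The horizontal axis shows the log2 fold change of ARID1A-KO over WT cells for tested regulators outside the protease families, arranged by function, with bars of 1 SE from edgeR; filled points passed an adjusted p of 0.05 and open points did not. PLAU (1.88) and PLAT (1.03) lie to the right, SPOCK1 (-2.75) and A2M (-2.37) to the left, and the fitted value of TFPI2 depends on only 2 counts in WT samples.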

How the data were processed

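RNA-seq of 3 WT and 3 ARID1A-KO samples was analysed, grouped by the sample titles. Reads were aligned by the authors with STAR to GRCh37 (Roddy pipeline). From featureCounts the authors deposited raw counts, of which the reverse-stranded column was used. The authors also deposited TPM values, of which the reverse-stranded column that is scaled over all genes was used to show levels. After filterByExpr and TMM scaling, genotypes were compared with edgeR's quasi-likelihood test (edgeR 4.0.16, limma 3.58.1, R 4.3.3) on all 6 samples without a covariate, with Benjamini-Hochberg adjustment over all 19599 genes tested and a threshold of 0.05. The SE given with edgeR is the absolute log2 fold change divided by the square root of that test's F statistic, so it is not an independent estimate. Fits were tested on simulated data. The labels call the RNA polyA, whereas the methods name a total RNA kit. No pair of samples agreed within sampling noise (chi-square per gene 6.95 to 131). The alternatives were unstranded counts, RLE, DESeq2 1.42.0, other filters, the replicate number as a block, omission of each sample, a threshold of 0.01, and other units for levels.

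Members and lists were chosen with earlier results of these data known. Named are ARID1A, all TIMPs, every called member (with full values if changed by 2-fold or more or at 10 TPM or more), every member at 10 TPM or more, members at 0 counts, and called regulators, with values for the 6 of smallest adjusted p. ADAMs were divided by catalytic site from textbook knowledge. The values of 1 listed regulator, included in the counts, are not reported here. PECAM1, of the endothelial list, was not analysed here. Neighbors are genes tested whose start lies within 5 Mb. Promoter windows were read from RefSeq (GRCh38.p14) with pandas 2.3.3 under Python 3.11.15. Intervals and limits at a count of 0 cover counting error only.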

Additional observations from a re-analysis of the deposited data

How the results depend on the processing

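Of the 29 called members, 22 kept their direction and their side of the threshold under every other count, scaling, filter, tool, block or left-out sample that gave them a value, including MMP14, MMP3, MMP24, TIMP3 and ADAMTS12, and no member with a call changed direction. The number of members called was 29 with unstranded counts, RLE or DESeq2, 26 with at least 10 counts in every sample, 36 without a filter and 20 at an adjusted p under 0.01. With single samples left out it ranged from 22 to 32, with 8 to 12 higher and 14 to 20 lower, and the number of regulators called from 21 to 24. With at least 10 counts in every sample, 5 tested members had no value. The median log2 fold change of all genes stayed between -0.0084 and 0.015 under all settings. The number of members at 10 or more was 20 by TPM and 13 by TMM-normalized CPM per kb. These units differ in scale, so a cut of 10 is not the same level in both. The replicate number as a block gave 32 calls among the members, and 7477 over all genes against 7099 without it. Deviations of same-numbered samples correlated at -0.18, 0.27 and 0.18, and 2 of 6 samples correlated best with their own number. With so few samples per genotype, these values cannot settle whether the numbers pair the samples. Without a filter on low counts, MMP1, ADAM28, ADAMTS7, ADAMTS18, ADAMTS20 and TIMP1 were also called (edgeR adjusted p of 0.00952, 0.0468, 0.0496, 0.0106, 0.0326 and 0.000517). In that fit the adjusted p (edgeR) of MMP3 went from 5.93e-05 to 1.09e-98 at nearly the same log2 fold change (-1.97 and -1.98). That of ADAM9 went from 0.291 to 0.528. The adjusted p values of the unfiltered fit are thus not comparable with those of the main fit, and no support is read from them. The block called MMP1, ADAMTS20 and TIMP1 (edgeR adjusted p of 0.0267, 0.0353 and 0.0373). MMP7, MMP12, MMP1, MMP13 and ADAM28 rest on at most 52 counts in any sample, and the part of depth in their values was not tested.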

Other observations

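ADAM29, a testis-associated ADAM without a catalytic site, was below the filter on low counts, with 0, 1 and 0 counts in WT and 2, 5 and 8 counts in ARID1A-KO samples. Without that filter its adjusted p was 0.0185 (edgeR's quasi-likelihood test), and it was the only one of the 19 untested members under 0.05. MMP21 had 4, 0 and 3 counts in WT and 0, 0 and 0 counts in ARID1A-KO samples and an adjusted p of 0.0529 in the same fit. Both rest on under 20 counts in all samples together, and the adjusted p values of this unfiltered fit are not comparable with those of the main fit.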
